A study of Homo sapiens with 4 samples.

Results

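The 10 genes described here encode the main heat shock proteins of the cytosol and of the mitochondrial matrix, namely HSPA1A, HSPA1B, DNAJB1, HSPH1, HSPB1, HSP90AA1, HSPA8, HSP90AB1, HSPD1 and HSPE1. They were found as the rows of the count table whose gene symbol equals one of these names, and all 10 were present among 56304 gene rows and among the 15529 genes that passed the filter on low counts. The table holds bulk RNAseq counts of MV3 cells, an established highly metastatic human melanoma line that expressed H2B-GFP, a fluorescent histone marking the nuclei. Spheroids of 50000 cells and 1 mm diameter were embedded in collagen I and dissected on day 2, and the labels give neither a drug nor irradiation for these samples. The core group (2 libraries) was taken with a 1 mm punch through the spheroid, and the invasion zone group (2 libraries) with a 3 mm punch from the surrounding collagen after removal of the core. Because the punch cuts vertically, cells that invaded above or below the spheroid can be part of the core sample. The core was frozen on dry ice at once, and the gel was then checked for remaining core before the invasion zone was punched. Zone and order of dissection therefore cannot be told apart. The replicate numbers 1 and 2 occur in both zones. The protocol describes each invasion zone as taken from the gel whose core had been punched, which points to pairs of zones. The library numbers in the count table are consecutive within a replicate number, which would also hold for libraries prepared together. No source states outright that libraries with the same number share their spheroids. The zones were compared without a replicate term, and values with the replicate number as a block are given beside them. No source says that replicates 1 and 2 came from separate cultures, so the p-values measure only the spread between these samples, which may be technical.

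Heat shock proteins are molecular chaperones, which bind unfolded or misfolded proteins and help them to fold. HSP70 proteins (HSPA1A, HSPA1B and HSPA8) work with J-domain co-chaperones such as DNAJB1, which stimulate their ATPase, and with nucleotide exchange factors such as HSPH1, while HSP90 proteins (HSP90AA1 and HSP90AB1) mature kinases, receptors and other client proteins. After heat, oxidative damage or other proteotoxic stress, the transcription factor HSF1 binds heat shock elements, inverted repeats of the bases GAA, and induces the stress-inducible genes, whereas HSPA8 and HSP90AB1 are expressed in unstressed cells and HSPD1 with HSPE1 form the chaperonin that folds proteins imported into mitochondria. For the comparison below, HSPA1A, HSPA1B, DNAJB1, HSPH1, HSPB1 and HSP90AA1 were grouped as stress-inducible and the other 4 genes as constitutive and mitochondrial, a division taken from textbook knowledge and not from the counts.

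The 250 bases before the transcription start of the inducible HSPA1A and HSPA1B are shown because both genes lie next to each other and their reads are hard to tell apart (RefSeq, GRCh38.p14, plus strand). HSPA1A is at chr6:31815293-31815542 and HSPA1B at chr6:31827488-31827737, and the capitals mark the inverted repeat GAANNTTC.
HSPA1A: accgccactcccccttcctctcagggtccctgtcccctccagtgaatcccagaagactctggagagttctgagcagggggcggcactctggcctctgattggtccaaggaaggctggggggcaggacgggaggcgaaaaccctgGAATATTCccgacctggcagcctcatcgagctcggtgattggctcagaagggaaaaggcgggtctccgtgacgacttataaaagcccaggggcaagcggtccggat
HSPA1B: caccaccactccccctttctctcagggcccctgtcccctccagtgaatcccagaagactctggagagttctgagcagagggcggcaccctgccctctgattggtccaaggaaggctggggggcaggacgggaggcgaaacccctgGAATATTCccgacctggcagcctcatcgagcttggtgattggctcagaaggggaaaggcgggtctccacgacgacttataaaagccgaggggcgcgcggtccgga
The 2 stretches were identical in 93.6% of 251 aligned positions, and the marked repeat ended 98 and 97 bases before the start. A repeat of 2 units (GAANNTTC or TTCNNGAA, each its own reverse complement) was also found in HSPB1 and HSPA8, against 11.7% of 27305 promoters searched in the same length. A repeat of 3 units (GAANNTTCNNGAA on either strand, which contains both shorter forms) occurred in 0.439% of these promoters. Of 70 promoters found for the further chaperone genes described below, 3 held it (HSPA6, DNAJB6 and CHORDC1). Among the 10 genes only HSPA8 held it in the window searched. It held 2 copies there, printed here because they belong to the gene used below as the constitutive reference. One was gaaagttccagaa at chr11:123062354-123062366, 217 bases before the start, and the other ttctggaaggttc at chr11:123062179-123062191, 42 bases before it (minus strand). Only the first listed RefSeq start of each gene and only exact units were searched. That start need not be the main one, so a gene without a match may hold the element at another start or in an imperfect form. A match is a description of the letters in this window, and binding was not measured.

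The libraries differed in depth, with 36363358 and 14983135 counts in core replicates 1 and 2 and 37591782 and 11789243 in invasion zone replicates 1 and 2, so each zone had 1 deep and 1 shallow library. Replicate 1 was the deep library in both zones, so replicate number and depth cannot be told apart. Replicates of a zone were not copies of each other (chi-square of 37.9 and 35.2 per degree of freedom). The melanocyte markers SOX10 and TYR had no count in any library and the 7 melanocyte markers together reached 2.91 to 5.81 CPM, whereas VIM was measured at 1696 to 2439 CPM, and of the 7 melanoma markers S100B (0 to 3 counts) and S100A1 (0 to 6 counts) were nearly absent while SOX9, CSPG4 and MCAM were counted, so part of the markers of the labelled cell type was not detectable. Of the other cell types looked for, the 5 immune markers reached at most 0.587 CPM together, and the endothelial KDR and the fibroblast DCN and LUM had no count. Of the 6 epithelial markers, EPCAM, CDH1, KRT5 and KRT14 had at most 6 counts in a library, KRT18 had 118 to 158 CPM, and KRT8 had 13.9 and 15.1 CPM in the core, against 9.21 and 7.83 CPM in the invasion zone (log2 fold change -0.76, adjusted p = 0.142). PECAM1 (0.926 to 18.1 CPM) and PDGFRA (13.6 to 95.2 CPM) were counted, each lower in both invasion zone libraries than in both core libraries, and their part in the results below was not tested. Values are given as normalised CPM, which are counts scaled to the library size with TMM factors, and the zones were compared by the quasi-likelihood test of edgeR, adjusted by Benjamini-Hochberg over 15529 genes. Calling a gene took an adjusted p under 0.05 together with a change of 2-fold or more. This test called 0 genes in either direction (0.0% higher and 0.0% lower). At an unadjusted p under 0.05, 11.9% of all genes were higher and 12.4% lower in the invasion zone, and these shares are the background for the counts given for the chaperones. The libraries of the zones did not overlap for 28.1% of the genes with the invasion zone above the core and for 30.3% with it below. In bulk RNA, fewer cells that express a gene and less RNA per cell cannot be told apart.

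None of the 10 heat shock protein genes passed the test, and their adjusted p ranged from 0.154 to 0.966. The smallest adjusted p that this test gave over all 15529 genes was 0.128. The 4 constitutive and mitochondrial genes all had a positive log2 fold change, invasion zone relative to core (median 0.56), whereas 4 of the 6 stress-inducible genes had a negative one (median -0.14), and over all genes tested the median was -0.01 with 49.3% positive. At an unadjusted edgeR p under 0.05, 3 of the 10 were higher in the invasion zone, namely HSP90AA1, HSPD1 and HSPE1, and 0 were lower. The shares over all genes were 11.9% and 12.4%. The same 3 and HSP90AB1 had both invasion zone libraries above both core libraries, as did 28.1% of all genes, and the other 6 overlapped. Neither DESeq2 nor limma voom called any of the 10 (0 and 0). The median of the stress-inducible genes was close to 0 and turned positive without core replicate 2 (0.04) or without invasion zone replicate 1 (0.02), while that of the other 4 genes was 0.38 to 0.66 when single libraries were omitted. Some other settings passed genes where this test passed 0. At an unadjusted p with a 2-fold change, 2.92% of all genes were higher and 5.85% lower, and 0 of the 10 were among them. DESeq2 called 2.89% higher and 4.37% lower of the 12217 genes to which it gave an adjusted p, with 0 of the 10. Without a count filter edgeR called 1.3% and 2.57% of 32869 genes, again with 0 of the 10. Without a filter and without a minimum fold, 3.49% of these 32869 genes were higher and 4.34% lower, and HSP90AA1, HSPD1 and HSPE1 were among the higher ones. Each share given for a setting is of the genes tested in that setting. With each library left out, called genes amounted to 0.0872% higher and 0.838% lower without core replicate 1, 3.63% and 3.82% without core replicate 2, 3.85% and 7.6% when invasion zone replicate 1 was omitted, and 1.21% and 1.98% when its replicate 2 was.

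The replicate number as a block changed how many of the 10 passed an adjusted p under 0.05. In that fit edgeR called 3.41% of all genes higher and 7.06% lower with a 2-fold change, and 0 of the 10. Without a minimum fold, 19.4% of all genes were higher and 19.4% lower. Of the 10, 5 were then higher in the invasion zone, namely HSPD1 (adjusted p = 0.000202), HSP90AA1 (0.000497), HSP90AB1 (0.0015), HSPE1 (0.00192) and HSPA8 (0.00369). The inducible HSPA1A (adjusted p = 0.0142) and DNAJB1 (0.0237) were lower, and HSPH1 (0.0735), HSPA1B (0.101) and HSPB1 (0.879) did not pass. The estimates themselves hardly moved, with 0.80 for HSPD1 and -0.44 for HSPA1A.

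**Figure D1:**
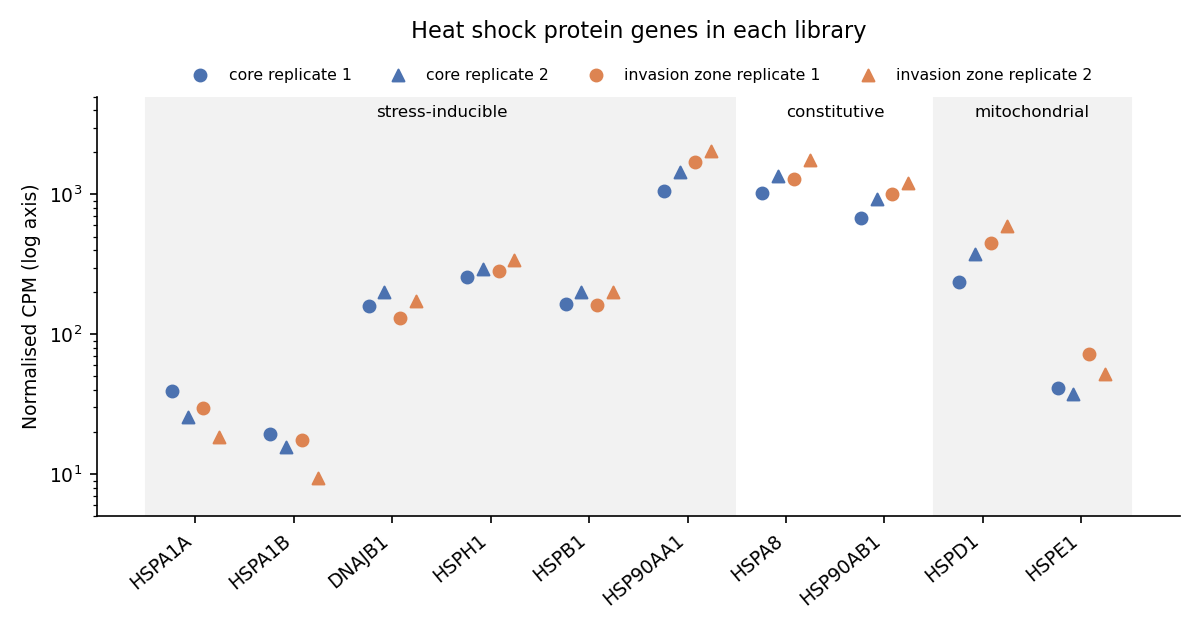
Normalised CPM of the 10 genes (log axis) in the 4 libraries, with core in blue, invasion zone in orange, replicate 1 as circles and replicate 2 as triangles, and the gene groups shaded. HSP90AA1, HSPA8 and HSP90AB1 were the most abundant with 683 to 2038 CPM. HSPA1A and HSPA1B had the least, with 9.34 to 39.6 CPM of uniquely mapped reads, which can understate genes so alike. The orange points lay above both blue ones for HSP90AA1, HSP90AB1, HSPD1 and HSPE1.

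The mitochondrial chaperonin genes showed the largest estimates. HSPD1 encodes HSP60, which forms the folding chamber, and lies on the minus strand of chromosome 2 (GRCh38, 197486584 to 197516737). It had 235 and 373 CPM in core replicates 1 and 2 and 449 and 593 CPM in invasion zone replicates 1 and 2, so the lowest invasion zone value was above the highest core value. The log2 fold change was 0.78 (standard error 0.27, adjusted p = 0.173), with 0.93 within replicate 1 and 0.67 within replicate 2. It was 1.16 without core replicate 2 (adjusted p = 0.0249), the 1 omission under which it was called, in a setting that called 3.63% of all genes higher. It was 0.96 without invasion zone replicate 1, 0.56 without invasion zone replicate 2 and 0.50 without core replicate 1, all under 2-fold. HSPE1 encodes HSP10, the lid of the chamber, and lies on the plus strand (197500140 to 197503449), with its RefSeq start 104 bases away from that of HSPD1 and in the opposite direction. HSPE1 had 41.0 and 37.5 CPM in the core, against 72.4 and 52.3 CPM in the invasion zone, again without overlap. Its log2 fold change was 0.67 (standard error 0.20, adjusted p = 0.154), the smallest adjusted p of the 10 genes. With single libraries omitted it ranged from 0.41 without invasion zone replicate 1 to 0.88 without invasion zone replicate 2, under 2-fold throughout. Both partners of the chaperonin thus had higher values in the invasion zone within both replicates. They did not pass the adjusted threshold in the test of all libraries without a replicate term, which does not hold for every other setting.

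The replicates differed in the balance of the chaperonin pair. HSPD1 had 5.73 counts per HSPE1 count in core replicate 1 and 6.21 in invasion zone replicate 1, against 9.92 and 11.3 in the replicate 2 libraries. The ratio therefore separated the replicates and not the zones, and within a replicate the invasion zone exceeded the core by 1.08-fold and 1.14-fold. HSPE1 is short and its counts are less certain, since 48.2% of the 50-base windows of its canonical transcript, 557 bases long, occur in another gene, among them the readthrough gene HSPE1-MOB4, which had no count. For HSPD1 the share was 27.1%, and 17 rows named as its pseudogenes held 0.497% to 1.66% of its own count.

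HSP90AA1, the inducible HSP90 (chromosome 14, 102080742 to 102139699), was the most abundant of the 10 by CPM. It had 1062 and 1439 CPM in the core, against 1717 and 2038 CPM in the invasion zone. The groups did not overlap, and the log2 fold change was 0.59 (standard error 0.21, adjusted p = 0.179). HSP90AB1, the constitutive HSP90 (chromosome 6, 44246166 to 44253888), had 683 and 929 CPM in the core, against 1007 and 1210 CPM in the invasion zone. The lower invasion zone library was above the higher core library here too, by a small margin, and the log2 fold change was 0.46 (standard error 0.21, adjusted p = 0.247). Both HSP90 genes had positive estimates that did not pass the test. HSP90AA1 was the only stress-inducible gene whose libraries did not overlap between zones. Over all genes tested, 28.1% had the invasion zone above the core without overlap and 30.3% had it below, so such a separation is common.

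Because both HSP90 genes are deeply counted, their ratio within a library has a small counting error and does not depend on the scaling. The cDNA was made with a kit for low input of RNA, and variation from that step is not part of the counting error. Of the 50-base windows of the canonical transcripts, 19.1% for HSP90AA1 and 19.7% for HSP90AB1 occur in another gene. HSP90AA1 had 1.56 counts per HSP90AB1 count in core replicate 1 (exact 95% interval 1.53 to 1.58) and 1.55 in core replicate 2 (1.52 to 1.58). In the invasion zone the ratio was 1.71 (1.68 to 1.73) and 1.68 (1.65 to 1.72). Both invasion zone ratios lay above both core ratios, by 1.10-fold within replicate 1 and 1.09-fold within replicate 2, and the intervals, which cover counting error only, did not overlap. With 2 libraries against 2 an exact permutation test of a single value gives a two-sided p of 0.333 at the lowest and cannot reach 0.05, so none was run on the ratios.

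HSPA8 encodes HSC70, the constitutive cytosolic HSP70 (chromosome 11, 123057489 to 123063230). It had 1027 and 1345 CPM in the core, against 1293 and 1775 CPM in the invasion zone. Core replicate 2 exceeded invasion zone replicate 1, so the zones overlapped, although the invasion zone was higher within both replicates (0.33 and 0.40 on the log2 scale). The log2 fold change was 0.37 (standard error 0.23, adjusted p = 0.375). Per kilobase of canonical transcript HSPA8 was the highest of the 10 in all 4 libraries, at 454 to 784 CPM per kilobase. HSP90AA1 and HSP90AB1 came next, in this order in each library. HSPB1 and HSPD1 followed and exchanged places in invasion zone replicate 2 (256 and 264 CPM per kilobase). HSPA1A and HSPA1B were the lowest, in this order, throughout. Most of their sequence is shared and only uniquely mapped reads were counted, so their true levels may be higher.

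The inducible HSP70 genes HSPA1A and HSPA1B encode the classical stress-induced HSP70 and lie 9791 bases apart on chromosome 6 (31815543 to 31817946 and 31827738 to 31830254), each as a single exon, with the start regions printed above. HSPA1A had 39.6 and 25.5 CPM in the core, against 29.9 and 18.4 CPM in the invasion zone. The replicate 1 libraries were the higher ones in both zones and the zones overlapped, while within each replicate the invasion zone value was 0.755 and 0.720 times the core value. HSPA1B had 19.5 and 15.7 CPM in the core, against 17.5 and 9.34 CPM in the invasion zone, which also overlapped. The log2 fold changes were -0.43 for HSPA1A (standard error 0.32, adjusted p = 0.459) and -0.37 for HSPA1B (standard error 0.33, adjusted p = 0.531), and -0.41 for both summed. Single libraries moved these values several-fold, from -0.06 without core replicate 1 to -0.83 without invasion zone replicate 1 for HSPA1A, and from -0.01 without invasion zone replicate 2 to -0.92 without invasion zone replicate 1 for HSPA1B. Their counts are uncertain and may be too low, since 75.1% and 73.6% of the 50-base windows of their canonical transcripts occur in another gene (1766 windows are common to this pair), and the counting kept only uniquely mapped reads.

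DNAJB1 encodes HSP40, the J-domain co-chaperone that is induced together with HSP70 (chromosome 19, 14514769 to 14560391). It had 160 and 201 CPM in the core, against 130 and 172 CPM in the invasion zone. Replicate 2 was the higher library in both zones, so the zones overlapped, and the log2 fold change was -0.26 (standard error 0.20, adjusted p = 0.481). The 2 replicates gave close values, -0.30 and -0.23. HSPH1 encodes HSP110, a nucleotide exchange factor of HSP70 (chromosome 13, 31134973 to 31162388). It had 257 and 293 CPM in the core, against 286 and 341 CPM in the invasion zone. The zones overlapped by a narrow margin and the log2 fold change was 0.19 (standard error 0.16, adjusted p = 0.515). HSPB1 encodes HSP27, a small heat shock protein that holds unfolded proteins without ATP (chromosome 7, 76302673 to 76304295). It had 165 and 201 CPM in the core, against 163 and 199 CPM in the invasion zone, the closest match between zones among the 10 genes. The log2 fold change was -0.02 (standard error 0.18, adjusted p = 0.966), and its sign turned when core replicate 2 (0.14) or invasion zone replicate 1 (0.12) was omitted.

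**Figure D2:**
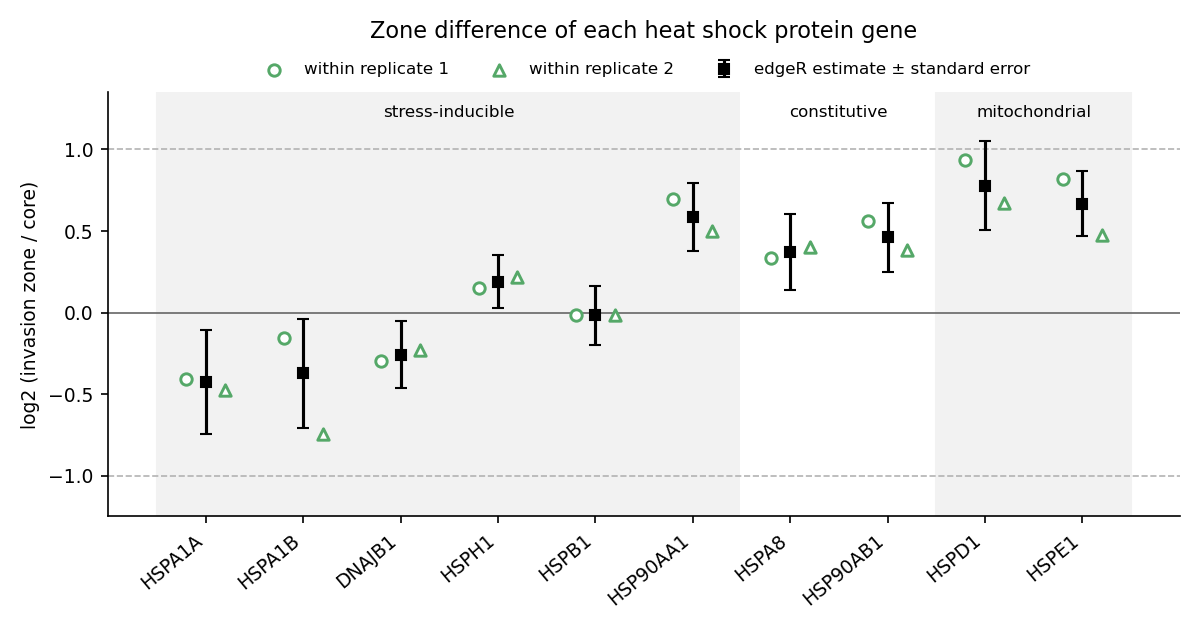
The log2 ratio of the invasion zone to the core for each gene, with the edgeR estimate and its standard error as black squares, the ratio within replicate 1 as open circles and within replicate 2 as open triangles. Dashed lines mark a 2-fold change. HSPA1A, HSPA1B and DNAJB1 were below 0 in both replicates, HSP90AA1, HSPA8, HSP90AB1, HSPD1 and HSPE1 above 0 in both, and HSPB1 at -0.02 in both.

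The inducible genes were next set against the constitutive HSPA8 within each library. Of the 50-base windows of the canonical transcripts, 16.8% for HSPA8 and 2.6% for DNAJB1 occur in another gene. HSPA8 also shares 555 exonic bases, and DNAJB1 525, with a gene on the opposite strand. The strandedness of the counting is not given, so part of these counts is less certain. DNAJB1 had 0.156 counts per HSPA8 count in core replicate 1 (exact 95% interval 0.1512 to 0.1599) and 0.1495 in core replicate 2 (0.144 to 0.155). In the invasion zone it had 0.101 (0.0976 to 0.104) and 0.0968 (0.0925 to 0.101). Core and invasion zone did not overlap, the replicates of a zone differed far less than the zones, and the invasion zone ratio was 0.647 and 0.648 times that of the core of the same replicate number. HSPA1A and HSPA1B together had 0.0575 counts per HSPA8 count in core replicate 1 and 0.0306 in core replicate 2, against 0.0366 and 0.0156 in the invasion zone. Here the values of the zones overlapped, although within each number the invasion zone had 0.637 and 0.510 times the core ratio. For HSPH1, a comparison chosen after its values were seen, the ratio to HSPA8 was 0.2505 and 0.2175 in the core and 0.221 and 0.192 in the invasion zone, which overlapped. A ratio alone does not show which of its genes moved. On the normalised scale, the log2 differences within replicates 1 and 2 were -0.30 and -0.23 for DNAJB1, against 0.33 and 0.40 for HSPA8. Both genes thus entered the DNAJB1 ratio, and the HSPA8 part was the larger. HSPH1 was itself higher in the invasion zone (0.15 and 0.22), so its lower ratio came from HSPA8. The immediate-early genes, which respond to handling as well as to growth factors, had summed levels of 722 and 933 CPM in the core, against 771 and 1145 CPM in the invasion zone. Of 13 tested, 0 were higher and 3 lower at an unadjusted edgeR p under 0.05 (FOS, JUNB and IER3), against 11.9% and 12.4% of all genes. The part of these genes in the result was not tested, and handling in the order of dissection cannot be told apart from the zone. The share of counts from mitochondrially encoded genes was 1.11% and 0.743% in the core and 0.928% and 0.717% in the invasion zone.

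**Figure D3:**
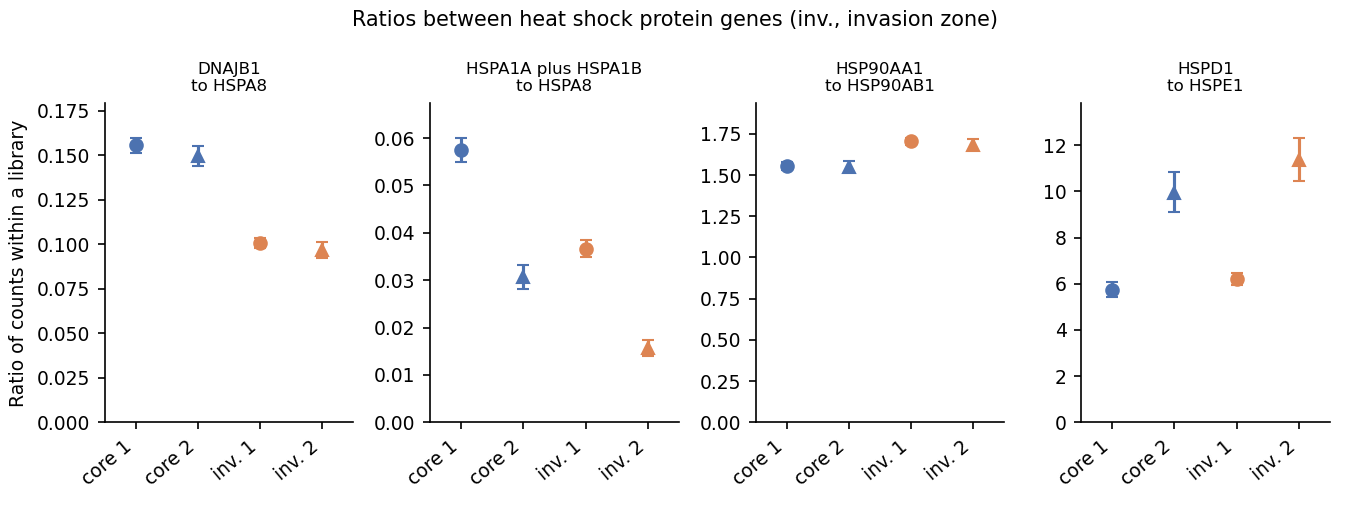
Ratios of raw counts between pairs of genes within each library, core in blue and invasion zone in orange, replicate 1 as circles and replicate 2 as triangles, with exact 95% intervals for counting error. The DNAJB1 to HSPA8 ratio was 0.1495 to 0.156 in the core and 0.0968 to 0.101 in the invasion zone, whereas the HSPD1 to HSPE1 ratio separated the replicates, at 5.73 to 6.21 and 9.92 to 11.3.

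Together the 10 genes took 0.363% and 0.489% of all counts in the core and 0.515% and 0.646% in the invasion zone. The share of both replicate 2 libraries exceeded that of the replicate 1 library of the same zone, but the invasion zone lay above the core without overlap. HSPA8, HSP90AA1 and HSP90AB1 make up most of this sum. On the log2 scale, the median difference of replicate 2 from replicate 1 over the 10 genes was 0.31 in the core and 0.26 in the invasion zone, against a median zone difference of 0.24 within replicate 1 and 0.30 within replicate 2. The differences between replicates and between zones were thus of similar size. The former did not run the same way in all genes, since HSPA1A, HSPA1B and HSPE1 were lower in both replicate 2 libraries than in the replicate 1 libraries of their zone, and the other 7 were higher.

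The wider chaperone network was described by 8 lists of 87 further genes, of which 78 were tested. The test called 0 of them in either direction, as did limma voom, and DESeq2 called 0 higher and 1 lower (HSF4). At an unadjusted edgeR p under 0.05, 21 were higher and 3 lower in the invasion zone, against 11.9% and 12.4% of all genes. A positive log2 fold change was found for 70.5% (median 0.30), against 49.3% of all genes. The list closest in function to HSPD1 and HSPE1 in the cytosol, the TRiC chaperonin that folds actin and tubulin with its co-factor prefoldin, had 13 of 14 positive estimates with a median of 0.55, and 11 were higher at an unadjusted p under 0.05. Its CCT5 had 158 and 250 CPM in the core, against 333 and 433 CPM in the invasion zone (log2 fold change 0.91, adjusted p = 0.152), PFDN2 had 56.0 and 53.9 against 90.2 and 91.8 CPM (0.73, adjusted p = 0.128), and PFDN5 was its 1 negative estimate at -0.25. CCT5 was called when core replicate 2 (1.29, adjusted p = 0.0122) or invasion zone replicate 1 (1.09, adjusted p = 0.0168) was omitted, settings that called 3.63% and 3.85% of all genes higher.

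Among the HSP90 co-chaperones, 11 of 13 estimates were positive with a median of 0.41, close to those of HSP90AA1 and HSP90AB1. At an unadjusted edgeR p under 0.05, 1 was higher and 1 lower, against 11.9% and 12.4% of all genes. Between zones 8 of 13 overlapped, 4 lay above the core and 1 below it. Over all genes, 28.1% lay above and 30.3% below without overlap. CHORDC1 had 26.3 and 45.7 CPM in the core, against 45.6 and 75.9 CPM in the invasion zone (0.76, adjusted p = 0.262), and FKBP4, an immunophilin of steroid receptor complexes, had a log2 fold change of 0.63 (adjusted p = 0.333). At the negative end were AHSA2 (-0.51) and UNC45A (-0.07). Among the other mitochondrial chaperones and proteases the median was 0.17 over 15 genes, led by TRAP1, the mitochondrial HSP90 (93.1 and 152 CPM in the core, against 159 and 220 CPM in the invasion zone, 0.63), and GRPEL2, a nucleotide exchange factor of mitochondrial HSP70 (0.62), and ended by LONP1 (-0.18) and CLPX (-0.15), both of matrix proteases. Among the other DNAJ proteins the median was 0.16 over 13 genes, from DNAJC9, a histone co-chaperone (0.96, adjusted p = 0.166), and DNAJC2 (0.65) to DNAJB5 (-0.35) and DNAJC13 (-0.17). When core replicate 2 was omitted, CHORDC1 (1.22), FKBP4 (1.13), TRAP1 (1.03) and DNAJC9 (1.45) were called, with edgeR adjusted p from 0.00866 to 0.0375, and when invasion zone replicate 1 was omitted, CHORDC1 (1.08) and DNAJC9 (1.123) were, again beside 3.63% and 3.85% of all genes called higher.

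The other members of the HSP70 family and its exchange factors went both ways, with a median of 0.10 over 15 genes. BAG2 (0.74) and HSPA14 (0.70) were the highest and HSPA2 (-0.60) and HSPA4L (-0.35) the lowest of those with a mean of at least 5 CPM. HSPA6, a strictly stress-induced HSP70, was singled out after its values were seen. It had 28 and 34 counts in the core, against 9 and 1 in the invasion zone. The estimate was -2.95 on the log2 scale (standard error 0.84, adjusted p = 0.148) and rests on few counts. BAG3, the exchange factor that is induced by HSF1 and likewise chosen after its values were seen, had 199 and 180 CPM in the core, against 161 and 149.5 CPM in the invasion zone, without overlap (-0.29). These added genes do not stand for all genes with heat shock elements. Of the 3 further chaperone genes with the repeat of 3 units, HSPA6 had a negative estimate, and CHORDC1 (0.76) and DNAJB6 (0.30) had positive ones. HSF1 itself had 120 and 110 CPM in the core, against 118 and 117 CPM in the invasion zone (0.03, standard error 0.13), and HSF2 16.8 and 20.2 against 15.3 and 15.6 CPM (-0.26). HSF4, a factor best known from the lens and singled out after its values were seen, had 7.27 and 5.44 against 2.80 and 2.27 CPM (-1.31, adjusted p = 0.134), and was called when invasion zone replicate 1 was omitted (-1.49, adjusted p = 0.047, beside 7.6% of all genes called lower). HSBP1, a negative regulator of HSF1, had a log2 fold change of -0.12. Of 9 other genes listed as small heat shock proteins only HSPB11 passed the count filter (0.26), and HSPB8 had no count in any library. The value of HSPB11 therefore does not describe the small heat shock proteins as a class.

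**Figure D4:**
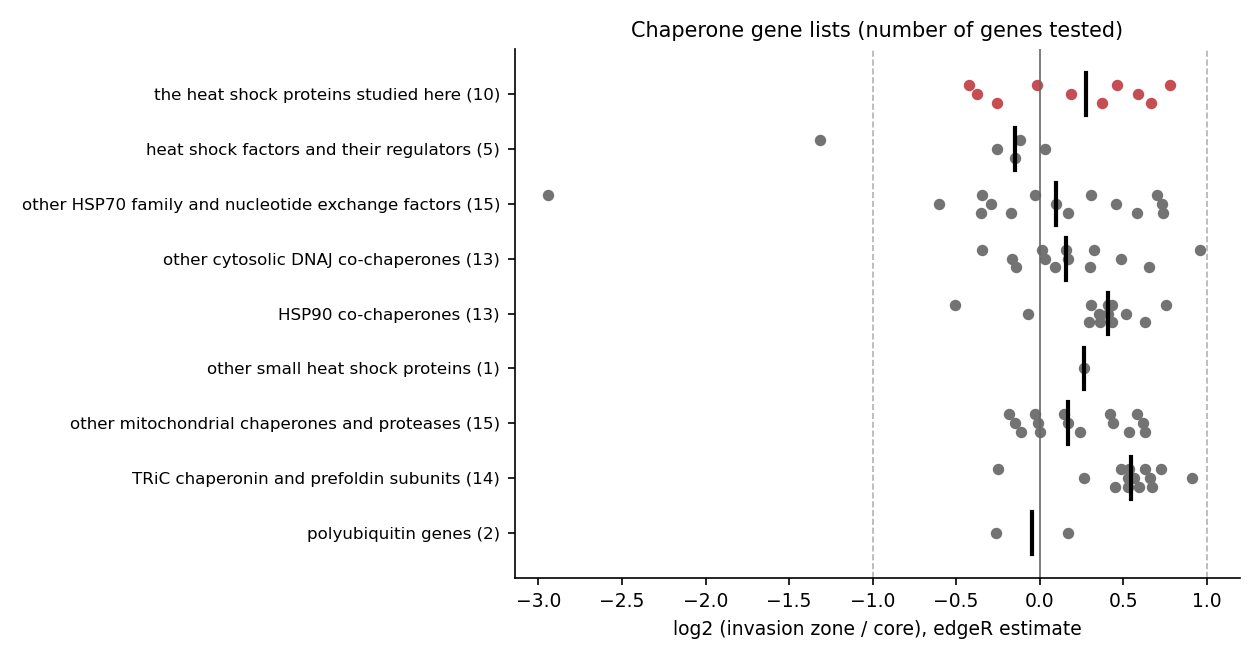
The edgeR log2 ratio of the invasion zone to the core for each gene tested, by list, with the 10 heat shock protein genes in red, the other lists in grey, the list median as a black bar and the number of genes tested in parentheses. Dashed lines mark a 2-fold change. The TRiC and prefoldin list had a median of 0.55, and HSPA6 (-2.95) and HSF4 (-1.31) were the 2 genes beyond 2-fold.

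As a last description, the genes whose centred log2 CPM values over the 4 libraries were nearest to DNAJB1 and to HSPD1 were listed by Euclidean distance. For DNAJB1 these were IL32, PMS2, COL4A3BP, PACSIN3 and ZBTB34, at distances of 0.02 to 0.05. For HSPD1 they included NLN, RBM14 and SRSF1, at distances of 0.04 to 0.05, with log2 fold changes of 0.77 to 0.80. A likeness over 4 libraries is shared by many genes and describes only these libraries.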

How the data were processed

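According to their methods, the authors made cDNA with a kit for low input of RNA. They filtered out rRNA with Bowtie and low-quality reads, mapped the remainder to hg38 with STAR and counted uniquely mapped reads with HTSeq-count. The deposited values are these raw counts per gene, without normalisation. Program versions, gene annotation and strandedness: not given in the sources used here. Of 56306 rows, 2 repeated rows without counts were left out. In R 4.3.3 with edgeR 4.0.16, filterByExpr kept genes with a minimum count of 10 (scaled to library size) in 2 libraries and a total of 15, TMM factors were 0.986 to 1.009, and glmQLFit and glmQLFTest compared the zones without a replicate term. The standard error is the log2 fold change divided by the square root of the F statistic. DESeq2 1.42.0, limma 3.58.1 (voom), other scalings, no filter, a replicate block, other call rules and each library left out were alternatives. The code was run on simulated counts with a fixed dispersion and no replicate effect. The real libraries differ from this setting, so that run does not measure how well the test works on them. Positions, lengths and shared windows came from GENCODE 44 (98.1% of identifiers matched) and promoters from RefSeq. The 10 genes and the lists were chosen with earlier results of these data known. Named were the 10 genes, HSF1, HSF2, from each other list the called genes and the 2 highest and 2 lowest with a mean of at least 5 CPM, and the 5 genes nearest to DNAJB1 and to HSPD1 (log2 CPM plus 0.5). Some genes this rule names are not reported here. HSPA6, HSF4 and BAG3 were added after their values were seen.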

Additional observations from a re-analysis of the deposited data

How the results depend on the processing

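The numbers of heat shock protein genes called higher and lower, 0 and 0, were also 0 and 0 under scaling by upper quartile or RLE, without a count filter, under DESeq2, limma voom, a replicate block, an unadjusted p with 2-fold change and no fold change minimum. With each library left out they were 0 to 1 and 0 to 0 (HSPD1 without core replicate 2, log2 fold change 1.16, where 3.63% of all genes were called higher), with the spread of the single remaining library taken from the other zone. Of the 87 further chaperone genes, 0 higher and 0 lower in the test reported, 0 to 5 were higher and 0 to 1 lower with a library left out (5 without core replicate 2, and 3 higher with 1 lower without invasion zone replicate 1, where 3.85% and 7.6% of all genes were called), 2 were lower without a count filter and at an unadjusted p with 2-fold change (HSF4 and HSPA6 in both), and 1 was lower under DESeq2. The median of the stress-inducible genes was -0.17 under upper-quartile scaling and -0.10 to 0.04 (0.0351 without core replicate 2) with a library left out, that of the constitutive and mitochondrial genes 0.38 to 0.66, and HSPB1 ranged from -0.17 to 0.14. The causes were not tested. With no count filter and no fold change minimum, chosen after seeing the data, 3 of the 10 genes passed as higher (HSP90AA1, HSPD1 and HSPE1). With a library left out, estimates also ranged from -0.83 to -0.06 for HSPA1A, -0.92 to -0.01 for HSPA1B, -0.47 to -0.07 for DNAJB1, 0.05 to 0.31 for HSPH1, 0.12 to 0.59 for HSPA8, 0.40 to 0.83 for HSP90AA1, 0.27 to 0.71 for HSP90AB1, 0.50 to 1.16 for HSPD1 and 0.41 to 0.88 for HSPE1, so several came close to 0 without changing sign.

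With the replicate number as a block, 1 further chaperone gene was called higher (DNAJC9) and 2 lower (HSF4 and HSPA6). With the replicate block and no fold change minimum, chosen after seeing the data, 5 of the 10 genes passed as higher (HSP90AA1, HSPA8, HSP90AB1, HSPD1 and HSPE1, adjusted p from 0.000202 to 0.00369) and 2 as lower (HSPA1A, 0.0142, and DNAJB1, 0.0237), and 39 of the further genes passed as higher and 7 as lower, against 19.4% of all genes in each direction. Deviations of same-numbered libraries from their zone means correlated at 0.64 across 15529 genes over 2 pairs, while the protocol takes both zones from the same gel and no source states outright that a number marks the shared gel. Same-numbered libraries were also alike in depth, and what underlies the correlation was not tested. Among the 10 genes HSPA1B had the lowest counts in each library (111 to 697), and its counting error is the largest.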
